A study of Rattus norvegicus with 6 samples.

Results

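The genes described here are 9 that make, use, recycle and break down glutathione: Gclc, Gclm and Gss for its synthesis, Slc7a11 for the supply of its precursor, Ggt1 for its breakdown outside the cell, Gsr for its reduction, and the peroxidases Gpx1, Gpx3 and Gpx4. They were chosen by name. Array probes were assigned to them through the probe's RefSeq accession, and each gene was read from its probe with the highest mean signal over the arrays. All 9 had a probe, 15 probes in total, and 8 of the 9 were among the 31193 transcripts that could be tested. The tissue was the cortex of the kidney, from male Sprague-Dawley rats bought at 5 weeks of age. For 4 weeks, 3 rats received corn oil and 3 rats received carbon tetrachloride at 100 mg/kg/day, a solvent whose radicals, formed by cytochrome P450 enzymes, attack membrane lipids. With 1 single-colour Agilent array per rat, precision is limited by the number of arrays. The series' design text names benzyl acetate as the treatment, whereas its title, sample labels and treatment protocol give carbon tetrachloride, and that name is kept.

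Glutathione is a tripeptide of glutamate, cysteine and glycine and the main small thiol of animal cells. Glutamate cysteine ligase, built from a catalytic subunit (Gclc) and a modifier subunit (Gclm), performs the first and rate-limiting step, and glutathione synthetase (Gss) adds the glycine. Glutathione peroxidases spend glutathione to reduce hydrogen peroxide and lipid hydroperoxides, and glutathione reductase (Gsr) restores it with NADPH. In the kidney, proximal tubule cells carry gamma-glutamyltransferase (Ggt1) on their brush border, where it cleaves filtered glutathione, and they secrete the plasma peroxidase encoded by Gpx3. Several of these genes are known targets of the transcription factor NRF2, which binds antioxidant response elements.

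The promoters of the 3 synthesis genes are shown because these genes had the widest ranges between rats among the 8 tested. They are RefSeq sequences of the build GRCr8, 250 bases before and 50 bases from the table's transcript start, 5′ to 3′ on the gene's strand. Gclc lies at chr8:87510226-87510525 on the plus strand, Gclm at chr2:213031885-213032184 on the plus strand, and Gss at chr3:164538257-164538556 on the minus strand. Capitals mark matches on either strand to TGACNNNGC, the core letters of the antioxidant response element.
Gclc: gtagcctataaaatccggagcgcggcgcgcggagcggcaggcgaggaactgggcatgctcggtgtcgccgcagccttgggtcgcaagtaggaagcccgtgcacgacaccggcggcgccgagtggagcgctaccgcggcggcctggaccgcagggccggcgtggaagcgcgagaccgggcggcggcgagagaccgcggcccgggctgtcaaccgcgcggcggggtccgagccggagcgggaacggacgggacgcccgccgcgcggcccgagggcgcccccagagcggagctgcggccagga
Gclm: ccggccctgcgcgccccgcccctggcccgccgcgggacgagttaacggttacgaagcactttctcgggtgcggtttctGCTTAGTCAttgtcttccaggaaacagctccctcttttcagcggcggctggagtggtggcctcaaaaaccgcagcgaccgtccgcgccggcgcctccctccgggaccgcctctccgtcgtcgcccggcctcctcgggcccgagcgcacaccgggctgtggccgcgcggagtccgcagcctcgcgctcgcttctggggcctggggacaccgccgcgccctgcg
Gss: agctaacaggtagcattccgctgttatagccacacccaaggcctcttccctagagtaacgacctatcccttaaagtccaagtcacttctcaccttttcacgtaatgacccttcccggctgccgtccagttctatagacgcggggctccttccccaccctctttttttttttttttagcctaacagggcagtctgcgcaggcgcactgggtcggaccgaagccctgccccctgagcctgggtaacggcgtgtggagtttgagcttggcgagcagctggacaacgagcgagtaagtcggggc
The window of Gclm held 1 match, on the opposite strand, whose first printed base lies 172 bases before the start. Among the 33469 promoter windows of this length in the table, 12.1% held a match. Sequences were found for 8 of the 9 genes, all but Gsr, with 10 windows in total because Gpx4 had 3, and the window of Gclm was the 1 with a match. A match is a description of letters and not a shown binding site, and the array probes do not measure binding.

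Treated and control rats were compared to ask whether the level of these transcripts differed after 4 weeks of dosing. At an adjusted p of 0.05 in limma, 0 of the 8 tested genes were called, and 0 of 8 had an unadjusted p under 0.05. Over all transcripts 0.00321% passed the adjusted threshold (1 transcript) and 6.30% had an unadjusted p under 0.05. The fitted change was above 0 for 8 of the 8 genes, with a median of 0.11 on the log2 scale, against 52.3% of all transcripts above 0 and a median of 0.0077. The 8 values come from the same 6 rats and are not independent, so the count of directions is no test. The limma adjusted p ran from 0.829 for Ggt1 to 0.988 for Gclm. For 7 of the 8 genes the 95% interval of the change lay within 2-fold in both directions, and Gclm was the exception.

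**Figure D1:**
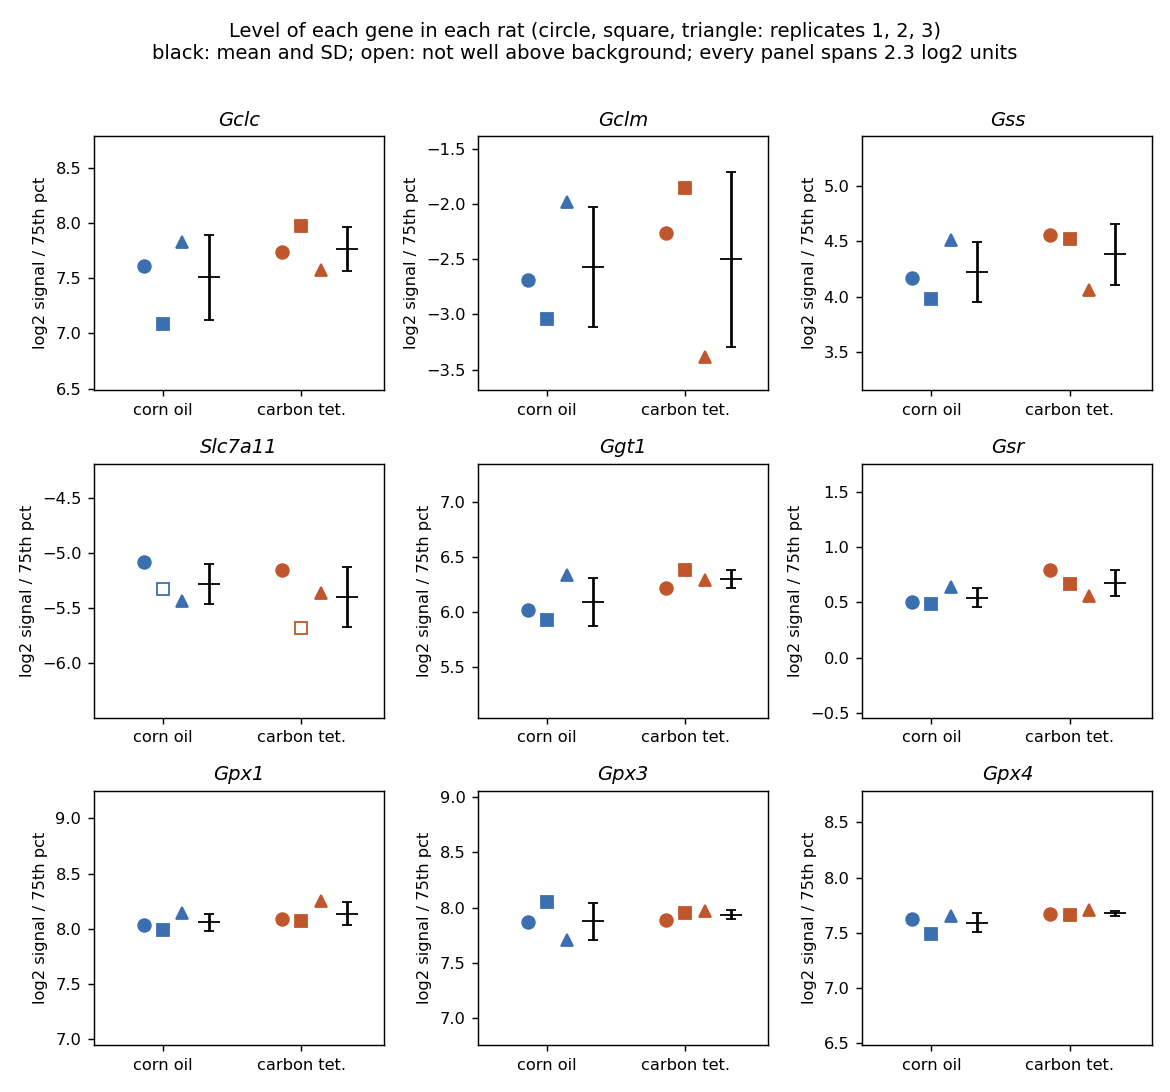
Level of each of the 9 genes in each rat as log2 of the processed signal relative to the array's 75th percentile, with panels of equal span, replicates 1 to 3 as circle, square and triangle, the mean and SD in black, and open symbols where the probe was not well above background. Gclm spread over 1.53 log2 units across the 6 rats and Gpx4 over 0.21, and the groups overlapped in every panel except that of Gpx4.

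Values below are log2 of the processed signal relative to the array's 75th percentile, for which a level cannot be set against that of another gene's probe. Gclc, the catalytic subunit, had 7.61, 7.08 and 7.83 in corn oil replicates 1 to 3 and 7.74, 7.97 and 7.57 in carbon tetrachloride replicates 1 to 3. Corn oil replicate 2 was the lowest of the 6 rats and carbon tetrachloride replicate 2 the highest, and the groups overlapped. The mean was 7.51 ± 0.38 (SD, n = 3) with corn oil and 7.76 ± 0.20 with carbon tetrachloride, a log2 change of 0.25 ± 0.21 (SE), with a 95% interval from -0.27 to 0.78 and a limma adjusted p of 0.849. The interval allows from 0.830-fold to 1.71-fold. Without corn oil replicate 2 the log2 change was 0.041, and without corn oil replicate 3 it was 0.41. The other probe of the gene had a change of 0.31.

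Gclm, the modifier subunit that raises the enzyme's efficiency, had the widest range of the 9. Its values were -2.69, -3.04 and -1.98 in the corn oil rats and -2.26, -1.86 and -3.39 in the carbon tetrachloride rats. The lowest and the highest value both came from treated rats, replicates 3 and 2, so the control values lay inside the treated range. The spread between the highest and the lowest rat was 2.89-fold, wider than that of 95.8% of all transcripts and of 95.8% of the 3613 transcripts whose mean level lay within 0.5 log2 units of its own. The log2 change of 0.07 ± 0.46 had a 95% interval from -1.06 to 1.20, with a limma adjusted p of 0.988, and the interval reaches past 2-fold on both sides. Its width differed with the background setting. With normexp correction at an offset of 50 the SE was 0.31, with percentile scaling as with quantile normalization. An added offset by itself narrows the log2 differences of a dim probe, and it was not run apart from the correction. The direction of the change turned without corn oil replicate 2 (-0.17), carbon tetrachloride replicate 1 (-0.049) or carbon tetrachloride replicate 2 (-0.25).

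Gss had 4.17, 3.98 and 4.51 with corn oil and 4.56, 4.52 and 4.06 with carbon tetrachloride. Corn oil replicate 2 and carbon tetrachloride replicate 3 were the 2 lowest rats. The log2 change was 0.16 ± 0.19, with a 95% interval from -0.31 to 0.64 and a limma adjusted p of 0.888. Without corn oil replicate 2 it was 0.041 and without carbon tetrachloride replicate 3 it was 0.32.

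The 3 synthesis genes were high and low in much the same rats. Averaged over these genes and set against the corn oil mean, corn oil replicates 1 to 3 lay at -0.02, -0.38 and 0.40, and carbon tetrachloride replicates 1 to 3 at 0.29, 0.49 and -0.30 (log2). The corn oil rats lie around their own mean by construction, and the treated rats lay both above and below it. Across the 6 rats Gclm and Gss had a Pearson r of 0.916 (exact permutation p = 0.0306) and a Spearman rho of 0.771 (exact permutation p = 0.103). For Gclc and Gss the values were 0.849 (exact permutation p = 0.0111) and 0.829 (exact permutation p = 0.0583). Gclc and Gclm had 0.751 (exact permutation p = 0.0611) and 0.943 (exact permutation p = 0.0167). Of the 28 pairs among the 8 genes 0 passed after Benjamini-Hochberg adjustment and 5 had an unadjusted exact Pearson p under 0.05, all tests being two-sided. Of those 5 pairs 3 were not made up of synthesis genes alone, and Gclc with Gclm was not among the 5. Gss with Gsr had an r of 0.885 (exact permutation p = 0.0278) and a rho of 0.943, Gclc with Ggt1 0.850 (exact permutation p = 0.0181) and 0.829, and Ggt1 with Gpx4 0.804 (exact permutation p = 0.0264) and 0.543, each with an adjusted Pearson p of 0.171. For both Gclm with Gss and Gclc with Gss the adjusted Pearson p was 0.171, and for Gclc with Gclm it was 0.285. The adjusted Spearman p values, in the same order, were 0.411, 0.327 and 0.233.

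Without the 2 rats farthest from the median of the first gene, r was 0.949 for Gclm with Gss, 0.919 for Gclc with Gss and 0.932 for Gclc with Gclm. It was 0.891 for Gss with Gsr, 0.468 for Gclc with Ggt1 and -0.318 for Ggt1 with Gpx4. Leaving out the farthest rats cuts the range of the first gene and leaves few rats, so these values cannot tell the pairs apart. Within the 5 arrays of the first slide, r of the 3 synthesis pairs, in the same order, was 0.935, 0.905 and 0.943, and for deviations from the group means it was 0.954, 0.828 and 0.812. For Gss with Gsr, Gclc with Ggt1 and Ggt1 with Gpx4 it was 0.904, 0.912 and 0.796 on the first slide and 0.911, 0.812 and 0.681 for the deviations. High values were not particular to the synthesis genes. On the first slide Gclm with Ggt1 had 0.996, Gclc with Gpx4 0.951 and Gss with Ggt1 0.930. Without the 2 farthest rats Gclm had 0.995 with Ggt1 and 0.993 with Gpx1. Pairs with Gpx3 were negative on the first slide, such as -0.605 for Gclc. These pairs were singled out after their values were seen. The 12 markers of proximal tubule, the segment that makes up most of the cortex, had list means that differed from the corn oil mean by between -0.025 and 0.087 (log2) over the 6 rats. One of these markers, Slc7a13, an amino acid transporter gene of the late proximal tubule, varied far more than the list mean, with 7.02, 6.14 and 7.49 in the corn oil rats and 7.21, 7.61 and 6.95 in the carbon tetrachloride rats. It placed the 6 rats in the same order as Gclc, a match noticed in the values. The podocyte and glomerular list means lay at -0.10, -0.03 and 0.13 of the corn oil mean in the corn oil rats and at 0.30, 0.23 and 0.01 in the treated rats. Leukocyte list means lay at 0.02, 0.21 and -0.23, then at 0.00017, -0.26 and -0.24. The value of carbon tetrachloride replicate 1 was raised by Itgam, a dim gene well above background on 5 of 6 arrays. Itgam was at -3.24 in that rat, against -6.34, -4.82 and -5.58 with corn oil. Each other leukocyte marker lay below its corn oil mean in that rat. Corn oil replicate 2, the lowest rat for Gclc and Gss, had the smallest share of probes well above background, 68.5% against 70.0% to 72.1% on the other arrays, and the part of this and of the markers in the gene values was not tested.

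**Figure D2:**
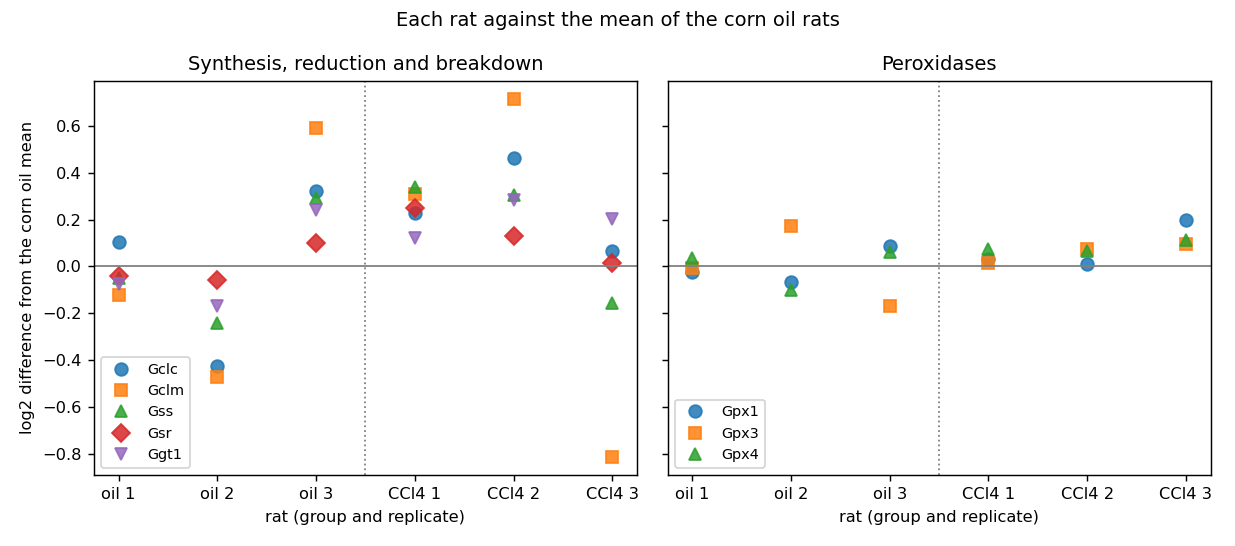
Log2 difference of each rat from the mean of the corn oil rats, for synthesis, reduction and breakdown genes on the left and peroxidases on the right, with the dotted line between the groups. The synthesis genes were low in corn oil replicate 2 and, for Gclm and Gss, in carbon tetrachloride replicate 3, and among the peroxidases Gpx3 was at its highest in corn oil replicate 2, where Gpx4 and Gpx1 were at their lowest.

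Among 12334 other genes with a symbol, those whose profile over the 6 arrays lay nearest to that of Gclm, by the root-mean-square distance between values centred on each gene's mean, were Acvr1c at 0.20, Macroh2a2 at 0.21 and Taf1a at 0.22 (log2 units). Acvr1c encodes a receptor of the activin and nodal family, Macroh2a2 a histone variant and Taf1a a subunit of a factor of RNA polymerase I. Acvr1c had 0.34, -0.54 and 1.03 in the corn oil rats and 0.42, 1.17 and -0.54 in the carbon tetrachloride rats. It was therefore, like Gclm, low in corn oil replicate 2 and carbon tetrachloride replicate 3. By the same measure Gss ranked 89, Gclc 190, Ggt1 1193 and Gsr 1251. The peroxidase genes ranked between 3625 for Gpx4 and 9206 for Gpx3. The values were centred but not scaled, so a gene of narrow range cannot lie near Gclm whatever its order of rats. These ranks therefore reflect range as well as shape and do not set the peroxidases apart by shape.

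Slc7a11 encodes the transport subunit of the cystine and glutamate exchanger that brings cystine into cells. Its signal was near the detection limit. The brightest of its 3 probes was well above background on 2 of the 3 corn oil arrays and on 2 of the 3 carbon tetrachloride arrays, and the other 2 probes on 0 of the 6. The brightest probe had -5.08, -5.33 and -5.44 with corn oil and -5.15, -5.68 and -5.36 with carbon tetrachloride. The groups overlapped and the means differed by -0.11 (log2). The gene was not tested, since the filter required detection on all 3 arrays of 1 group or the other. Without that filter its limma adjusted p was 0.979.

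Ggt1, the brush border enzyme that starts the breakdown of extracellular glutathione, had the smallest unadjusted p of the 8 genes, 0.150 in limma. It had 6.02, 5.92 and 6.33 with corn oil and 6.21, 6.38 and 6.29 with carbon tetrachloride. Corn oil replicates 1 and 2 were the 2 lowest rats, but corn oil replicate 3 was above carbon tetrachloride replicates 1 and 3. The log2 change of 0.20 ± 0.12 had a 95% interval from -0.10 to 0.51, with a limma adjusted p of 0.829. Without corn oil replicate 3 it was 0.32, with an unadjusted p of 0.0159 and an adjusted p of 0.600 in limma, so that 1 of the 8 genes then had an unadjusted p under 0.05. Without corn oil replicate 2 it was 0.12.

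Gsr, which reduces oxidised glutathione, had 0.50, 0.48 and 0.64 with corn oil and 0.79, 0.67 and 0.56 with carbon tetrachloride. The groups overlapped through corn oil replicate 3 and carbon tetrachloride replicate 3. The log2 change was 0.13 ± 0.09, with a 95% interval from -0.09 to 0.35 and a limma adjusted p of 0.835. That interval ends at 1.28-fold.

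The 3 peroxidases varied little between rats, with ranges of 0.26, 0.34 and 0.21 log2 units for Gpx1, Gpx3 and Gpx4. Gpx1, the abundant cytosolic enzyme, had 8.04, 7.99 and 8.15 with corn oil and 8.09, 8.07 and 8.26 with carbon tetrachloride, and the groups overlapped. Its log2 change was 0.08 ± 0.08, with a 95% interval from -0.13 to 0.29 and a limma adjusted p of 0.876, and its other probe had 0.05. Gpx3, which the proximal tubule secretes into plasma, had 7.87, 8.05 and 7.71 with corn oil and 7.89, 7.95 and 7.97 with carbon tetrachloride. The 3 treated rats lay within the range of the corn oil rats, and Gpx3 was highest in corn oil replicate 2, the lowest rat for Gclc. The log2 change of 0.06 ± 0.10 had a 95% interval from -0.19 to 0.31 and a limma adjusted p of 0.921, and it turned to -0.023 without corn oil replicate 3.

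Gpx4, which reduces lipid hydroperoxides within membranes, was the 1 member whose groups did not overlap on the probe used. It had 7.63, 7.49 and 7.65 with corn oil and 7.67, 7.66 and 7.70 with carbon tetrachloride, so the lowest treated rat exceeded the highest control by less than the SD of the corn oil rats. Groups did not overlap in this direction for 7.55% of transcripts, and in either direction for 12.8%, so 1 of 8 genes is near the background. In the lower direction there were 0 of 8 genes, against 5.28% of transcripts. The log2 change was 0.09 ± 0.07, with a 95% interval from -0.09 to 0.26, at most 1.20-fold, and a limma adjusted p of 0.849. It was 0.036 without corn oil replicate 2, 0.036 with quantile normalization, and 0.050 and 0.024 with normexp followed by percentile scaling and by quantile normalization. Its other 2 probes had 0.08 and 0.05, and the groups overlapped on both of them. The whole range of Gpx4 over the 6 rats was 1.16-fold, wider than that of 19.2% of all transcripts and of 49.3% of the 209 transcripts of like level.

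**Figure D3:**
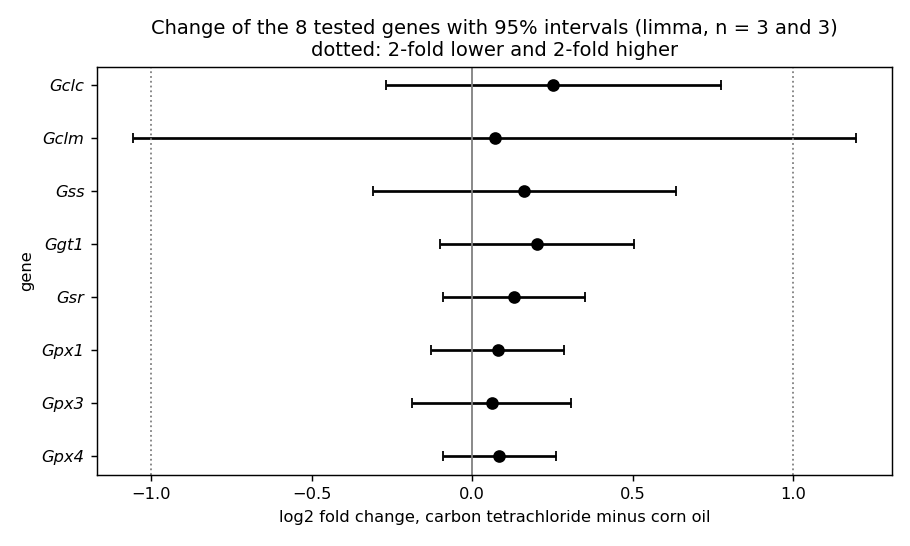
Log2 change with its 95% interval from limma for the 8 tested genes, carbon tetrachloride minus corn oil, 3 rats per group. Each interval crosses 0, and that of Gclm alone, from -1.06 to 1.20, passes the dotted lines at 2-fold.

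Carbon tetrachloride replicate 3 was the only array on a second slide, read in a second scan, and the other 5 arrays shared the first slide. Within the first slide, which compares 2 treated rats with 3 controls, the log2 changes were 0.51 for Gclm, 0.35 for Gclc, 0.32 for Gss, 0.20 for Ggt1 and 0.19 for Gsr. The peroxidases had 0.07 for Gpx4, 0.044 for Gpx3 and 0.022 for Gpx1. The median of the 8 genes was 0.20 there against 0.11 over all 6 rats. The smallest limma adjusted p among them was 0.734, that of Gsr, and 0 of the 8 had an unadjusted p under 0.05. For replicate 3 the slide, the scan and the animal cannot be told apart.

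**Figure D4:**
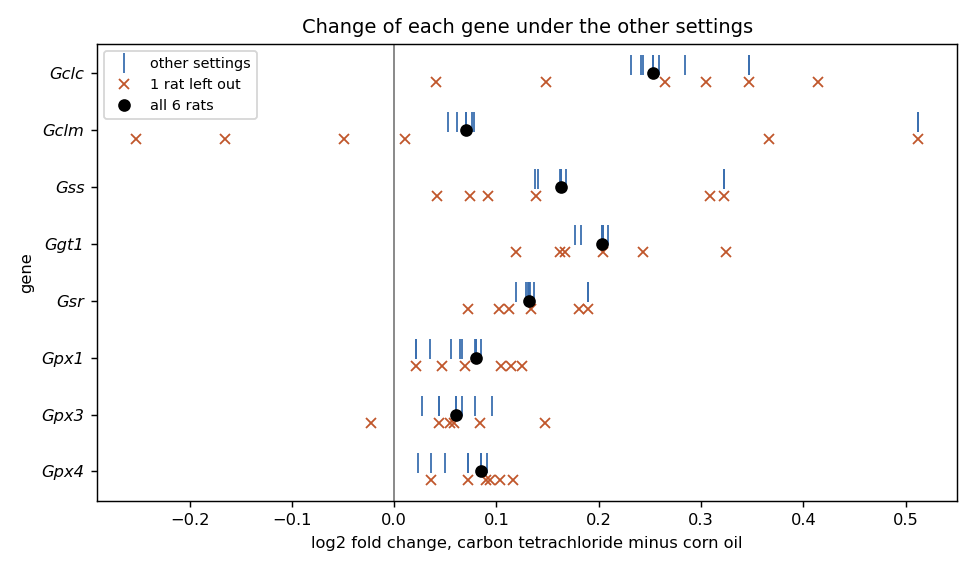
Log2 change of the 8 genes with all 6 rats (black), with 1 rat left out (crosses) and under the other settings of background, scaling, filter, probes, variance model and blocks (bars). Gclm moved between -0.25 and 0.51 when single rats were left out, while Gsr stayed between 0.07 and 0.19.

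The other genes of glutathione metabolism comprise 59 in 8 role groups, of which 53 were tested. In limma 0 passed an adjusted p of 0.05, and 2 had an unadjusted p under 0.05, both lower, which is 3.77% against 6.30% of all transcripts. Of the 53, 35 had a change above 0 and 18 below, with a median of 0.06 (log2). Groups did not overlap for 4 genes in the higher and 3 in the lower direction, 13.2% against 12.8% of all transcripts. The genes named here are those with the smallest p of each role group.

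Precursor supply and cysteine metabolism had 9 of 11 genes above 0 and a median of 0.07, with Mtr, the methionine synthase, at 0.13 ± 0.09 (SE) and Cth, which makes cysteine from cystathionine, at 0.24 ± 0.17. Cth was at 2.04 in corn oil replicate 2 and between 2.55 and 2.70 in the other 5 rats. Breakdown and the gamma-glutamyl cycle had 3 of 11 above 0 and a median of -0.09. Ggt6, a relative of Ggt1, had -4.66, -4.24 and -4.42 with corn oil and -4.76, -6.08 and -5.24 with carbon tetrachloride, where 2 of 3 arrays were well above background. Its groups did not overlap, and the log2 change of -0.92 ± 0.34 had an unadjusted p of 0.0349 and an adjusted p of 0.781 in limma. Dpep2, a dipeptidase, had -0.51 ± 0.25.

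Of the other glutathione peroxidases 4 were tested, 1 above 0 and 3 below. Gpx6 had -1.14, -1.39 and -1.40 with corn oil and -1.78, -1.61 and -1.65 with carbon tetrachloride, without overlap. The log2 change of -0.37 ± 0.10 had an unadjusted p of 0.0102 and an adjusted p of 0.753 in limma, and 1 of the gene's 3 probes had this direction. Gpx8, an enzyme of the endoplasmic reticulum, had -0.33 ± 0.17, also without overlap. Gpx2, the epithelial form and a known NRF2 target, is given because of its spread, seen in its values. It had 2.62, 4.31 and 4.68 with corn oil and 4.54, 5.19 and 4.65 with carbon tetrachloride, so that corn oil replicate 1 stood well below the other 5 rats, and its log2 change was 0.93 ± 0.55 (limma adjusted p = 0.827).

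Glutaredoxins and the thioredoxin system had 7 of 8 above 0 and a median of 0.07, with thioredoxin itself, Txn1, at 0.14 ± 0.12 and the reductase gene Txnrd3 at 0.13 ± 0.09. NADPH supply had 4 of 5 above 0 and a median of 0.05. Nnt, the mitochondrial transhydrogenase, had 4.26, 4.24 and 4.31 with corn oil and 4.48, 4.35 and 4.50 with carbon tetrachloride, without overlap, a log2 change of 0.17 ± 0.07 with an unadjusted p of 0.0528 in limma. Idh1, the cytosolic isocitrate dehydrogenase, had -0.25 ± 0.14.

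Export and mitochondrial import had 4 of 4 above 0 and a median of 0.11. Slc25a39, a carrier that brings glutathione into mitochondria, had 0.18 ± 0.09 and Abcc1, an exporter of glutathione conjugates, 0.12 ± 0.07, both without overlap between groups. Selenoprotein synthesis, on which Gpx1, Gpx3 and Gpx4 depend for their selenocysteine, had 5 of 7 above 0 and a median of 0.06. Sepsecs, the enzyme that forms selenocysteine on its transfer RNA, had 0.09 ± 0.07, again without overlap, and Secisbp2, which guides its insertion, had -0.11 ± 0.07. The glyoxalase group had 2 of 3 above 0, with Hagh at 0.03 ± 0.08 and Esd at -0.03 ± 0.09.

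**Figure D5:**
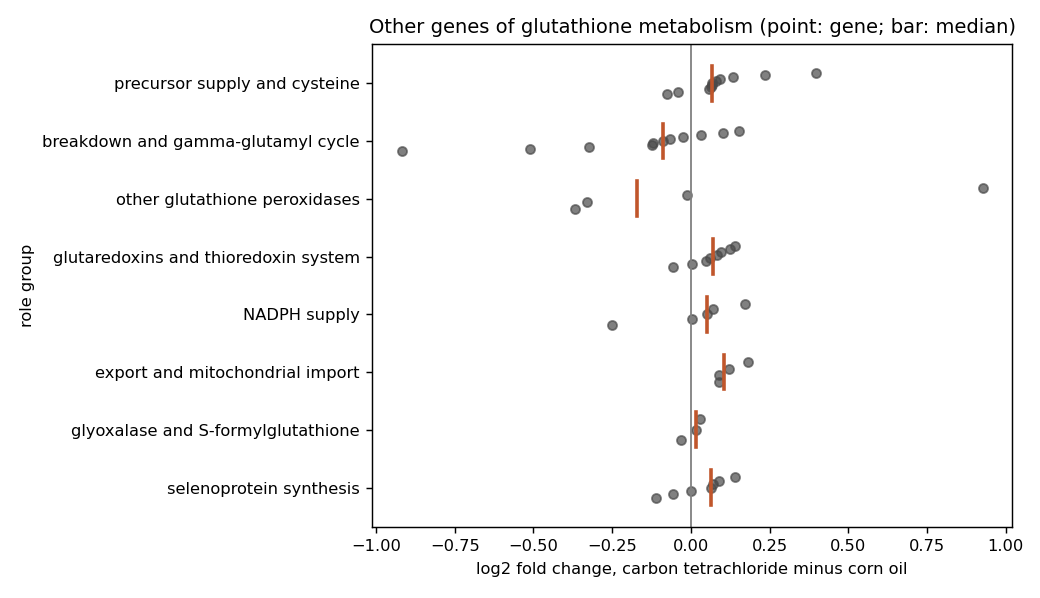
Log2 change of 53 other genes of glutathione metabolism by role group, with each gene as a point and the group's median as a bar. Medians lay between -0.17 for the other peroxidases and 0.11 for export and mitochondrial import.

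An array had 68.5% to 72.1% of its 61537 non-control probes well above background. Of the proximal tubule markers 12 of 12 were tested. Their mean level lay between 7.10 and 7.17 with corn oil and between 7.13 and 7.22 with carbon tetrachloride. No separate list of medullary markers was read, so these levels cannot tell cortex from whole kidney. Leukocyte markers, 6 tested, had mean levels of 0.22 to 0.66 with corn oil and 0.19 to 0.45 with carbon tetrachloride, and 5 of 6 were lower after treatment. The 0.45, of carbon tetrachloride replicate 1, includes the high value of the dim gene Itgam in that rat. All 5 podocyte and glomerular markers and all 4 endothelial markers had a change above 0, with medians of 0.20 and 0.07 on the log2 scale. The 7 thick ascending limb and distal markers had a median of -0.03 and the 4 tested red cell markers 0.02. Of liver and adrenal markers, Cps1, Serpina1, Cyp11b1, Cyp11b2 and Star were well above background on 0 of 6 arrays and Alb on 2. Thus 1 of 4 liver markers (Apoa1) and 2 of 5 adrenal markers (Th and Cyp17a1, median -0.07) were tested. Th, with values from 1.02 to 1.36, and Cyp17a1, from -3.24 to -2.48, were each well above background on 6 of 6 arrays. Apoa1, a dim probe with values from -5.86 to -4.30, had a log2 change of 0.80 ± 0.24 (SE) and a limma adjusted p of 0.768. The part of cell composition in the values of the glutathione genes was not tested, and in tissue RNA fewer cells of a type and less RNA per cell cannot be told apart.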

How the data were processed

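The deposited scanner files hold a background-subtracted linear intensity per spot, extracted per the file headers with Agilent Feature Extraction 10.7.1.1 (10.7 per the submitters' processing notes). The deposited value table is that intensity over 1 factor per array, from 1015 to 1092. Its column medians were 0.118, 0.111 and 0.114 for the corn oil arrays, then 0.116, 0.115 and 0.111 for the treated arrays. Its scale, centring and direction follow from the scanner values. Here the processed signal was divided by its 75th percentile on the array and log2 was taken. The 1439 control spots and spots with an outlier flag (0 to 25 per array) were left out. Probes detected well above background on all 3 arrays of either group were tested. Accessions were matched to RefSeq symbols of GRCr8, for 45.8% of probes, and the brightest tested probe stood for a gene. The array design rests on rn4, so promoter coordinates are those of GRCr8 and no probe position is given.

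The fit was limma 3.58.1 (R 4.3.3, lmFit and eBayes, two-sided, all 6 arrays), with Benjamini-Hochberg adjustment over 31193 transcripts, and the code was tested on simulated data with planted changes. The submitters describe the rats as biological replicates. Replicate numbers are shared by the groups. Deviations of same-numbered rats correlated at -0.02, -0.10 and -0.08, which gives no sign of pairing. Deviations within groups of 3 rats cannot settle the question, and the main fit used no pairing. Members and lists were chosen with earlier results of these data known. By rule, the text names all members, from each role group of the other glutathione genes those past the threshold or else the 2 of smallest p, and the 3 genes with the profile nearest to the member of widest range. Gpx2 was added after its values were seen. Alternatives were other background corrections, scalings, filters, probe rules, variance models, blocks and left-out arrays.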

Additional observations from a re-analysis of the deposited data

How the results depend on the processing

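Of the 8 tested genes, 0 passed an adjusted p of 0.05 in limma under the 18 alternatives run, which are 16 distinct fits: carbon tetrachloride replicate 3 is the 1 array of the second slide, so the slide block, the first slide alone and the fit without that rat are the same fit. Slc7a11 was tested only when dim probes were kept and did not pass. Of the other glutathione genes tested, 0 passed under these alternatives. At an unadjusted p under 0.05 there was 1 member, Ggt1, without corn oil replicate 3, and 0 in the other fits. Between the scalings, background corrections, filters and probe rules each of the 8 tested genes kept a change above 0. Single rats left out turned the direction of Gclm (from -0.25 to 0.51) and Gpx3 (from -0.023 to 0.15). Gclm had -0.17 without corn oil replicate 2, -0.049 without carbon tetrachloride replicate 1 and -0.25 without carbon tetrachloride replicate 2, and Gpx3 had -0.023 without corn oil replicate 3. The median of the 8 genes, 0.11 with all rats, ran from 0.044 without corn oil replicate 2 to 0.25 without corn oil replicate 3. It was 0.20 in the single fit of the first slide, and 0.11 with the replicate number as a block, which changed no call of a member. The cause was not tested. The number of transcripts past the threshold, 1, was 0 under both normexp settings, when dim probes were kept, when detection on all 6 arrays was required, under a robust fit with an intensity trend, under the replicate block or the slide block, and on the first slide alone. It was 0 to 2 without single rats and 1965 at an unadjusted p of 0.05. The correlations of the synthesis genes were recomputed under settings chosen after seeing the data and lay between 0.726 and 0.954. Detection above background limits Slc7a11 alone among the members, though the SE of Gclm also changed with the background correction. The 3 rats per group limit all of them.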
